A study of Mus musculus with 8 samples.

Results

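The laminin chain genes Lama4, Lama2, Lamb1, Lamb3 and Lamc1 and the nidogen genes Nid1 and Nid2 were examined in cultured sacral neural crest cells of mouse embryos, Sox10 Dom/Dom set against wild type. They are 7 of the 6855 genes that could be tested in the table used here, each taken by its gene symbol from the platform annotation and each represented by 1 probe set. Measured genes, below, are the genes of that table. Lama4 was chosen by its measured levels in this contrast, lower in Dom/Dom cells, and the other 6 genes were taken as its relatives with results already known. For these 7 genes the genotype contrast is therefore given as a description with no p-value; which of them the fit over all genes called is stated as part of that description and is not read as evidence.

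The Dom/Dom group had 4 arrays from Sox10 Dom homozygotes, Dom being a frameshift allele of this transcription factor gene, and the wild-type group had 4 arrays. Each group was numbered as replicates 1 to 4, and both came from embryos at embryonic day 9.5. Explants of the neural tube caudal to somite 24 were kept in DMEM/F12 with 10% serum and lifted off after 24 hours. RNA came from all cells that had migrated out, with no sort for neural crest described. The labels do not say whether replicates came from separate embryos or litters, or how many embryos were pooled, so the spread between arrays may be partly technical.

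Laminins are secreted heterotrimers of an alpha, a beta and a gamma chain that assemble into the sheet of the basement membrane. Nidogens bridge laminin to the collagen IV network, and integrins and dystroglycan on the cell surface bind the end of the alpha chain. The alpha chain gives a laminin its receptor preference: Lama4 encodes a short alpha chain found in the walls of vessels and in peripheral nerve, and Lama2 encodes the alpha chain of muscle and Schwann cell basement membranes. Neural crest cells migrate along laminin and other matrix, and their glial derivatives build a basement membrane of their own.

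Levels are log2 expression values after robust multi-array averaging (RMA), so 1 unit is a doubling. Sox10 itself had levels of 9.98, 10.94, 10.52 and 10.55 in Dom/Dom replicates 1 to 4, against 11.67, 11.46, 11.89 and 11.75 in wild type, and as a frameshift leaves a transcript, these levels say nothing on the genotype labels. Fabp7, a fatty acid binding protein gene of crest and glia named after its values were seen, lay between 13.87 and 14.19 in Dom/Dom. In wild type it lay between 13.90 and 14.16. It is 1 of 12 measured glial markers described below, of which 7 were called lower in Dom/Dom, where 0.408% of all genes were. Its levels therefore do not show that crest or glial content was equal. The values came without detection calls, so absence of a marker could not be established. Array medians over all probe sets lay between 8.60 and 8.78, and array levels correlated at 0.969 to 0.994. RNA was measured in bulk, so fewer cells of a type and less RNA per cell cannot be told apart.

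Lama4 was the laminin gene that separated the genotypes. Its probe set (10362538; the gene lies on chromosome 10 from 38965515 to 39110188 in GRCm38.p6) had log2 levels of 8.19, 8.39, 8.36 and 8.60 in Dom/Dom replicates 1 to 4, against 10.39, 10.38, 11.31 and 11.44 in wild-type replicates 1 to 4. Every Dom/Dom array was below every wild-type array, with a gap of 1.78 log2 units between the highest Dom/Dom and the lowest wild-type value. The means were 8.39 ± 0.17 for Dom/Dom and 10.88 ± 0.57 for wild type (SD, n = 4 each), so the difference was -2.50 (standard error 0.24), or 5.64-fold lower. In same-numbered arrays the difference was -2.20, -1.99, -2.95 and -2.84 for replicates 1 to 4, and 10.7% of all genes were lower in Dom/Dom in 4 of 4 such pairs. The Dom/Dom arrays lay within 0.41 log2 units of each other, while the wild-type arrays spanned 1.06, with replicates 1 and 2 low and replicates 3 and 4 high. The larger pair differences of replicates 3 and 4 thus went with higher wild-type levels, not with lower Dom/Dom levels. The Dom/Dom levels lay near or below the lowest array median over all probe sets (8.60). RMA compresses differences of dim probe sets, so the spread of the Dom/Dom levels and the fold difference could be understated.

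The limma fit over all genes called 33 genes at an adjusted p under 0.05, 0.481% of those tested (0.408% were lower and 0.0729% higher in Dom/Dom). Of the 7 genes, 1 was among them, Lama4, whose call chose the set, so nothing is read from this count. Its difference was the third lowest of all 6855 genes. Groups did not overlap for Lama4 alone of the 7, against 3.78% of all genes, and the other 6 genes had overlapping groups. The median difference of the 7 genes was -0.07, beside -0.0009 over all genes.

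**Figure D1:**
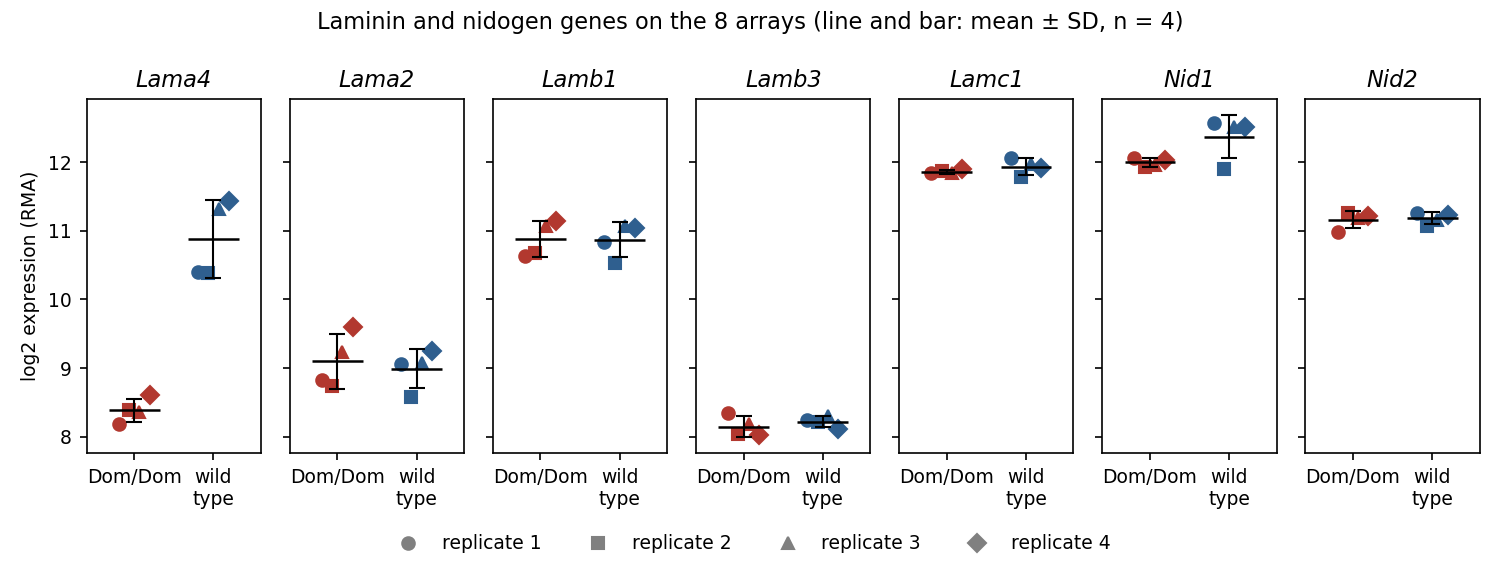
Log2 expression (vertical axis) of each laminin and nidogen gene on each array, with Dom/Dom left of wild type, marker shape for the replicate number and line and bar for the mean ± SD of 4 arrays. Lama4 has Dom/Dom values from 8.19 to 8.60, all below the wild-type values of 10.38 to 11.44, and in each other gene the groups overlap.

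Lama2, the other alpha chain gene in the table used here, had overlapping groups. Its gene lies on the same chromosome as Lama4 (chromosome 10, 26981285 to 27617191), and its levels were 8.83, 8.73, 9.23 and 9.60 in Dom/Dom replicates 1 to 4, against 9.06, 8.58, 9.08 and 9.26 in wild type. Dom/Dom replicate 4 was highest of all and wild-type replicate 2 lowest. The means were 9.10 ± 0.40 for Dom/Dom and 8.99 ± 0.29 for wild type (SD, n = 4 each), so the difference was 0.11 (standard error 0.20). Dom/Dom was lower in 1 of 4 same-numbered pairs, replicate 1, and higher in the other 3. Without Dom/Dom replicate 4 the difference was -0.06 and without wild-type replicate 2 it was -0.03, so its sign rested on single arrays.

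Lamb1 and Lamc1, whose beta and gamma chains can pair with the Lama4 chain, had overlapping groups and small mean differences. Lamb2 and Lamc3, other beta and gamma chain genes, were not in the table used here. Lamb1 (chromosome 12, 31265146 to 31329644) encodes the most widely used beta chain, and its levels were 10.64, 10.67, 11.07 and 11.14 in Dom/Dom replicates 1 to 4, against 10.84, 10.53, 11.07 and 11.05 in wild type. In both genotypes replicates 3 and 4 were above replicates 1 and 2, and the means of 10.88 ± 0.26 for Dom/Dom and 10.87 ± 0.25 for wild type (SD, n = 4 each) differed by 0.01 with a standard error of 0.15. Lamc1 (chromosome 1, 153218922 to 153332786) encodes the gamma chain shared by most laminins. Its levels were 11.84, 11.87, 11.84 and 11.90 in Dom/Dom, against 12.07, 11.78, 11.98 and 11.92 in wild type. The Dom/Dom arrays of Lamc1 lay within 0.07 log2 units of each other, inside the wild-type range, and its difference was -0.07 with a standard error of 0.08.

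Lamb3 (chromosome 1, 193294353 to 193343878) encodes a beta chain of the laminin that anchors surface epithelia. Its levels lay below every array's median over all probe sets, at 8.35, 8.03, 8.19 and 8.02 in Dom/Dom and 8.25, 8.21, 8.29 and 8.11 in wild type. The wild-type values lay inside the Dom/Dom range, with means of 8.15 ± 0.15 for Dom/Dom and 8.22 ± 0.08 for wild type (SD, n = 4 each) and a difference of -0.07 (standard error 0.09). RMA compresses differences of dim probe sets, so a change in Lamb3 could be understated.

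Nid1 (chromosome 13, 13437602 to 13512275) had the second largest difference of the 7 genes, and 1 array, wild-type replicate 2, stood apart in it. Its levels were 12.07, 11.92, 11.96 and 12.04 in Dom/Dom replicates 1 to 4, against 12.57, 11.91, 12.51 and 12.51 in wild type. The Dom/Dom arrays sat within 0.14 log2 units of each other and below wild-type replicates 1, 3 and 4, while wild-type replicate 2 was below them all. The means were 12.00 ± 0.06 for Dom/Dom and 12.37 ± 0.31 for wild type (SD, n = 4 each), so the difference was -0.38 (standard error 0.14). The pair differences were -0.50, 0.02, -0.54 and -0.47. Without wild-type replicate 2 the difference was -0.53, and the fit called Nid1 there, with 0.744% of all genes, and not over all arrays.

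Nid2 (chromosome 14, 19751257 to 19811787), encodes the other nidogen. Its levels were 10.99, 11.26, 11.18 and 11.22 in Dom/Dom and 11.26, 11.07, 11.16 and 11.24 in wild type, with overlapping groups and Dom/Dom replicate 1 lowest. The difference was -0.02 with a standard error of 0.09, and Dom/Dom was lower in 2 of 4 pairs. When each array was centred on its median, the difference of Nid2 was 0.02, so no direction is given for it.

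**Figure D2:**
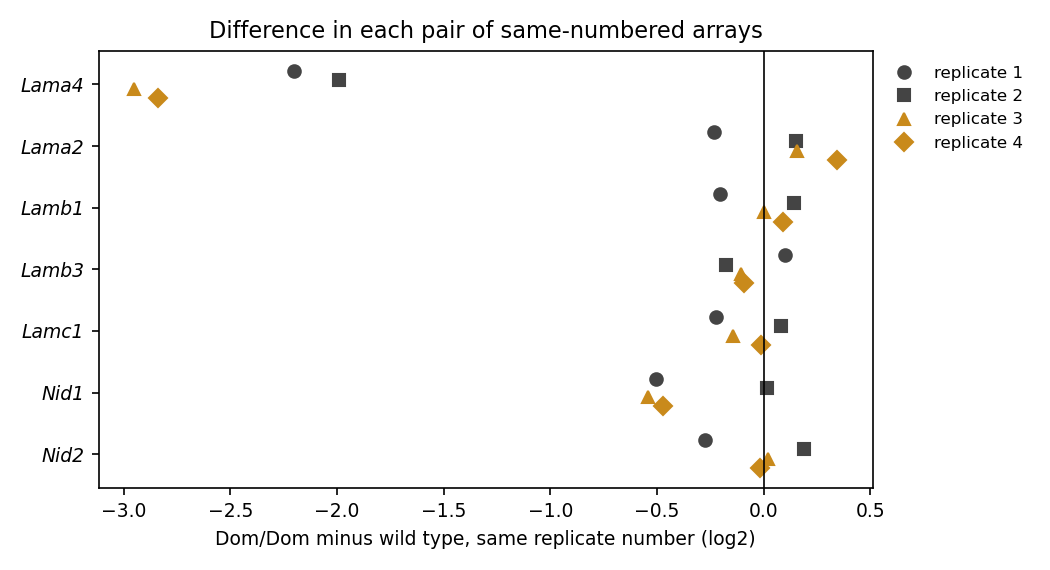
Dom/Dom minus wild type in log2 units (horizontal axis) for each pair of arrays with the same replicate number, 1 row per gene and marker shape for the replicate number. Lama4 lies between -2.95 and -1.99 in all 4 pairs, and the other 6 genes lie between -0.54 and 0.35.

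How the 7 genes varied together within a genotype was described by the correlation, over the 8 arrays, of the arrays' deviations from their genotype means. Arrays with the same replicate number deviate together across all genes, so such correlations share that source, and no p is given. Of the 21 pairs of genes, Lama2 and Lamb1 were most alike (r = 0.93). Both were highest in replicates 3 and 4 of either genotype, and in wild type both were lowest in replicate 2. Wild-type Lama2 hardly differed between replicates 1 and 3 (9.06 and 9.08). Lamc1 and Nid1 followed with r = 0.85, both being high in wild-type replicate 1 and low in wild-type replicate 2. Lama4 had r = 0.72 with Lamb1 and 0.14 with Lamc1, and Lamb3 and Nid2 ran in opposite directions (r = -0.74).

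The genes most like Lama4 were taken in 2 ways, as the 5 with the highest Pearson correlation over the 8 arrays. By level, which includes the genotype difference, they were Sphk1 (r = 0.997), which makes sphingosine 1-phosphate, Cdh19 (r = 0.993), a cadherin of Schwann cell precursors, Deptor (r = 0.984), an mTOR inhibitor, Dct (r = 0.983), an enzyme of melanin synthesis, and Pmel (r = 0.976), which forms melanosome fibrils. All 5 were called lower in Dom/Dom, as the measure favours. Nid1 had r = 0.760 with Lama4 by level, Lamc1 0.459 and Lama2 -0.006.

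By deviations from the genotype means, which leave out the genotype difference, the 5 genes were Cfap410 (r = 0.990), a cilium protein gene, Kcnk5 (r = 0.985), a background potassium channel, Il1rap (r = 0.981), an interleukin co-receptor, Stx7 (r = 0.976), a syntaxin of endosomes, and Sphk1 (r = 0.973). Lama4 varied more in wild type (SD 0.57) than in Dom/Dom (SD 0.17), so this measure favours genes that vary in wild type and is not independent of genotype. In each of the 5 all Dom/Dom arrays were below all wild-type arrays. Such a separation, in either direction, was seen in 3.78% of the 6855 genes. As the measure is tied to genotype, nothing is read from this count. In Clec14a, the gene of rank 6 (r = 0.972), the groups overlapped. The differences of the 5 were -0.36 for Cfap410, -1.15 for Kcnk5, -1.09 for Il1rap, -0.61 for Stx7 and -0.96 for Sphk1, with limma adjusted p of 0.432, 0.140, 0.0526, 0.169 and 0.00745. With the replicate number as a block the adjusted p of Kcnk5, Il1rap and Stx7 were 0.0286, 0.0133 and 0.0340. Sphk1 was called in both fits, with levels of 8.97, 8.97, 9.06 and 9.16 in Dom/Dom, against 9.83, 9.74, 10.17 and 10.26 in wild type. Both Lama4 and Sphk1 were thus higher in wild-type replicates 3 and 4 than in wild-type replicates 1 and 2.

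**Figure D3:**
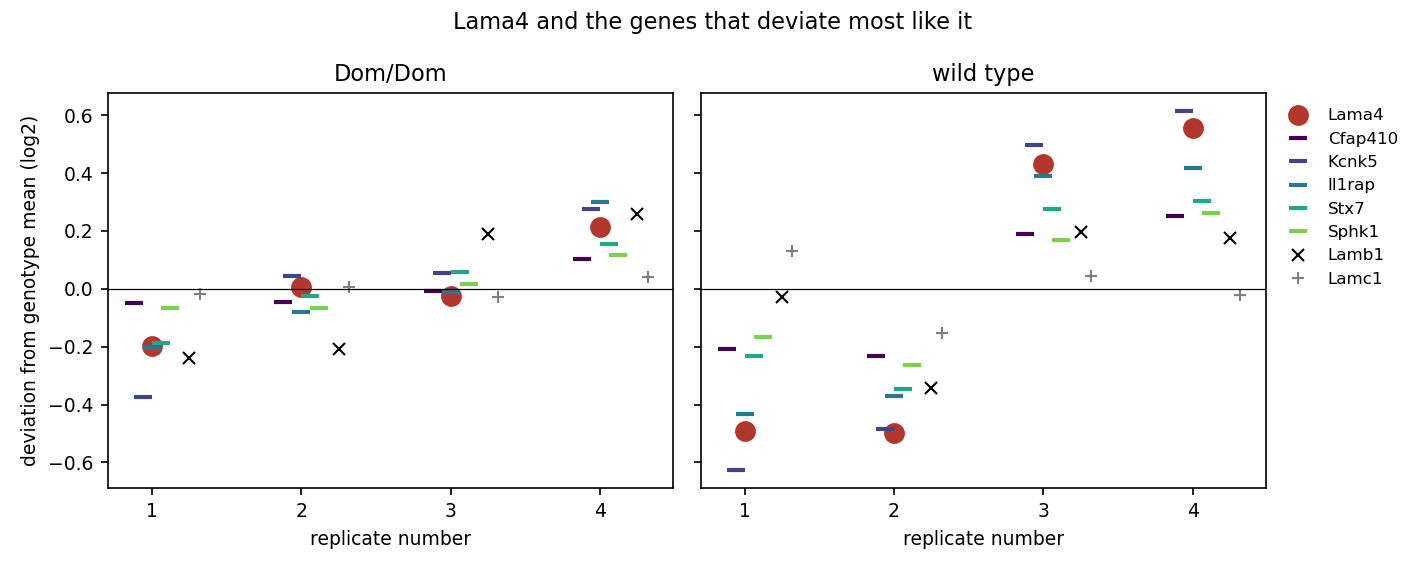
Deviation of each array from the mean of its genotype in log2 units (vertical axis) by replicate number, with Dom/Dom in the left panel and wild type in the right, for Lama4 (filled circles), the 5 genes with the most similar deviations (dashes), Lamb1 (x) and Lamc1 (+). In wild type, Lama4 and the 5 genes lie below 0 in replicates 1 and 2 and above 0 in replicates 3 and 4, and Lamc1 does not.

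The measured genes nearest to Lama4 on chromosome 10 were compared to see whether its neighbourhood differed between genotypes. Relative to the start of Lama4, their starts lay from -2459 kb (Hs3st5) to 647 kb (Traf3ip2). Before Lama4 the nearest was Rfpl4b at -145 kb and the next was 5930403N24Rik at -1826 kb, so not all are adjacent genes. Of the 5 nearest measured genes on each side, Hs3st5, Hdac2, Marcks, 5930403N24Rik and Rfpl4b before it and Fam229b, Tube1, Ccn6, Fyn and Traf3ip2 after it, 0 of 10 were called by limma and 0 had an unadjusted p under 0.05, against 6.11% of all genes. Their differences ran from -0.15 for Fyn, a Src family kinase gene, to 0.13 for Tube1, a tubulin gene, and the groups overlapped in all 10. With the replicate block 3 had an unadjusted p under 0.05, against 13.9% of all genes, and 0 were called, the lowest adjusted p being 0.264.

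**Figure D4:**
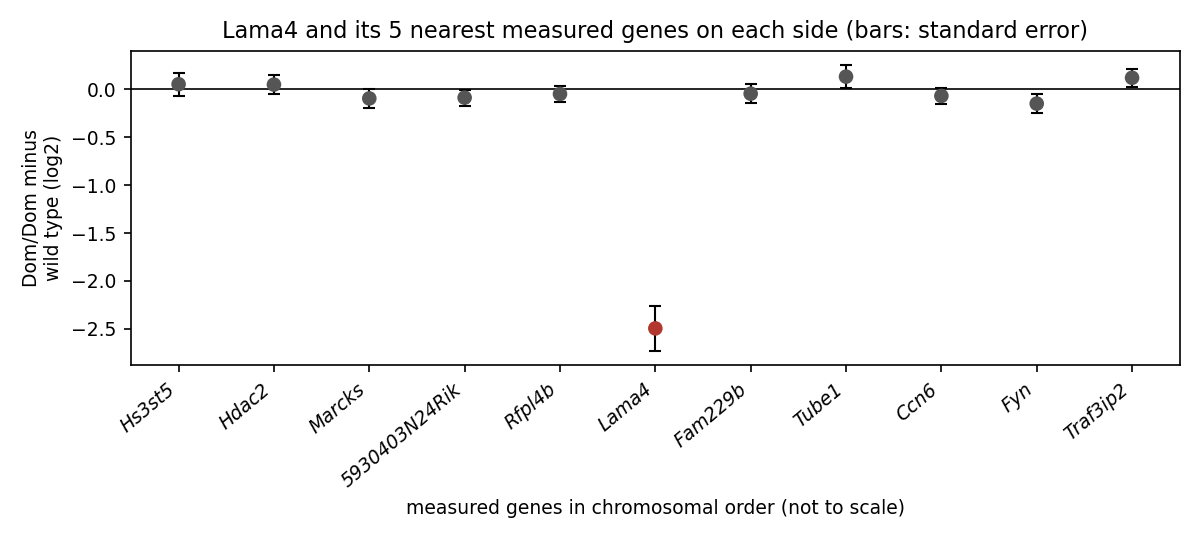
Dom/Dom minus wild type in log2 units (vertical axis) with its standard error for Lama4 and the 5 nearest measured genes on each side, in chromosomal order and not to scale. Lama4 stands at -2.50, and its 10 neighbours lie between -0.15 and 0.13.

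Other proteins built with laminin domains were represented by 3 of 14 listed genes, of which 0 were called by limma and 1 had an unadjusted p under 0.05 (against 6.11% of all genes). That gene was Egflam, which encodes pikachurin, a dystroglycan ligand with laminin G domains. Its levels were 8.23, 8.66, 8.62 and 8.82 in Dom/Dom, against 9.13, 9.22, 9.35 and 9.62 in wild type. The groups did not overlap, and the difference of -0.75 (standard error 0.14) gave a limma adjusted p of 0.0512, and 0.00584 with the replicate block, where 1.50% of all genes were called. The netrin genes Ntn1 (0.17, adjusted p = 1.00) and Ntn4 (-0.08, adjusted p = 1.00) were the other 2. The list's median difference was -0.08, beside -0.0009 over all genes.

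Laminin receptors were represented by 10 of 20 listed genes, and 0 were called by limma, with 2 at an unadjusted p under 0.05 (against 6.11% of all genes). Their median difference was 0.05. The differences with the greatest size were those of Sdc2, a cell surface heparan sulfate proteoglycan (0.46, limma adjusted p = 0.403), and Itga3, an integrin subunit that binds laminin (0.28, adjusted p = 1.00). The 2 at an unadjusted p under 0.05 were Sdc2 and another integrin subunit gene, Itga2 (-0.22, limma adjusted p = 0.709). Sdc2 levels were 10.81, 11.02, 11.41 and 11.42 in Dom/Dom, against 10.62, 10.52, 10.73 and 10.96 in wild type, higher in Dom/Dom in 4 of 4 pairs, as were 10.4% of all genes.

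In the complex that links dystroglycan to the cytoskeleton, and among the enzymes that glycosylate it, 8 of 28 listed genes were measured and 0 were called, with 1 at an unadjusted p under 0.05 (against 6.11% of all genes) and a median difference of 0.02. Sntb1, which encodes the adaptor beta-1-syntrophin, had levels of 10.67, 11.00, 10.62 and 10.90 in Dom/Dom, against 11.39, 11.07, 11.50 and 11.65 in wild type. Its groups did not overlap, with a difference of -0.61 (standard error 0.13, limma adjusted p = 0.108), and it was called without wild-type replicate 2, the lowest of its wild-type arrays. Sgcd, a sarcoglycan gene, differed by -0.17 (adjusted p = 1.00). Utrn, which encodes the dystrophin relative utrophin, differed by 0.02 (adjusted p = 1.00).

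Other components of the basement membrane, 9 of 32 listed genes, had 0 called by limma (against 0.481% of all genes). At an unadjusted p under 0.05 there were also 0 (against 6.11% of all genes). With 9 genes, nothing is read from these counts. Their differences ran from -0.14 for Col18a1, a collagen of basement membranes, to 0.04 for Pxdn, which crosslinks collagen IV, around a median of 0.01. Papln, a papilin gene, differed by -0.13 (adjusted p = 1.00). Sparc, a collagen IV chaperone and matrix protein, was at 14.04, 13.92, 14.07 and 14.09 in Dom/Dom and 14.06, 13.88, 14.05 and 14.06 in wild type. The 2 collagen IV chain genes measured, Col4a3 and Col4a4, differed by -0.05 and 0.01.

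Genes of the interstitial matrix, listed for comparison, had 0 of 11 measured members called and 2 at an unadjusted p under 0.05 (against 6.11% of all genes), around a median difference of 0.06. Vcan, the proteoglycan versican, differed by -0.59 (limma adjusted p = 0.118; 0.0269 with the replicate block), and Has2, a hyaluronan synthase, by -0.50 (adjusted p = 0.377; 0.0459 with the block). Vcan was also called without wild-type replicate 2. Fn1, which encodes fibronectin, differed by 0.09.

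Markers of cell types that make laminins were set beside Lama4. Of 12 measured markers of glia and Schwann cell precursors, 7 fell, 0 rose and 5 did not pass, where 0.408% of all genes fell; the list was written with their results known. The 4 with the greatest differences were Cdh19 (-4.25, limma adjusted p = 0.00166), Erbb3, a neuregulin receptor gene (-1.57, adjusted p = 0.0214), Cnp, an enzyme gene of myelinating glia (-1.20, adjusted p = 0.0336), and Sox10 (-1.20, adjusted p = 0.0168). The mean log2 level of the list lay between 9.73 and 9.87 on the Dom/Dom arrays and between 10.60 and 11.11 on the wild-type arrays, and its median difference was -0.96. Like Lama4, the list mean was higher in wild-type replicates 3 and 4 (11.11 and 11.10) than in replicates 1 and 2 (10.67 and 10.60). This was not particular to glial markers. The endothelial mean had 8.31 and 8.27 against 8.15 and 8.07, and the mesoderm mean 8.66 and 8.68 against 8.47 and 8.41. The pericyte mean differed little between replicates 1, 3 and 4, and the epithelial mean was highest in replicate 1. With the replicate block 5 fell, where 1.05% of all genes did. Leaving out Dom/Dom replicate 3 or 4 or wild-type replicate 3 or 4 gave a count of 2, Cdh19 and the adhesion receptor gene Adgrg6. In those fits, in that order, 11, 12, 10 and 10 of all 6855 genes were called, against 33 over all arrays. The part of cell makeup in the difference of Lama4 was not tested.

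Endothelial cells are a known source of the Lama4 chain, and 11 of 28 listed endothelial markers were measured. Of the 11, 0 were called by limma (against 0.481% of all genes) and 0 had an unadjusted p under 0.05 (against 6.11%). With 11 genes, nothing is read from these counts. Their mean level lay between 8.10 and 8.20 on the Dom/Dom arrays and between 8.07 and 8.31 on the wild-type arrays, with a median difference of -0.02. These means lay below every array's median over all probe sets, so changes in dim markers could be understated, as for Lamb3. The greatest differences were those of Ramp2 (-0.18, adjusted p = 1.00), an adrenomedullin receptor partner, and Sox7 (-0.16, adjusted p = 1.00). Clec14a, an endothelial lectin gene chosen here after its values were seen, was at 7.09, 7.21, 7.27 and 7.30 in Dom/Dom and 7.03, 6.88, 7.42 and 7.50 in wild type. Its correlation with Lama4 was 0.972 by deviations and 0.248 by level, and its groups overlapped.

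Pericyte and smooth muscle markers had 0 of 6 called by limma, with 3 at an unadjusted p under 0.05 (against 6.11% of all genes) and a median difference of 0.23. Their mean level lay between 9.85 and 10.12 in Dom/Dom and between 9.43 and 9.74 in wild type. Rgs5, a pericyte regulator of G protein signalling, differed by 0.90 (limma adjusted p = 0.583; 0.00358 with the replicate block), and Myocd, a coactivator of smooth muscle genes, by 0.63 (adjusted p = 0.353). Mesoderm and fibroblast markers, which mark cells that can make the Lama2 chain, had 0 of 14 called and 2 at an unadjusted p under 0.05 (against 6.11% of all genes), with mean levels of 8.51 to 8.99 in Dom/Dom and 8.41 to 8.68 in wild type. Myf5, a myogenic factor gene, differed by 0.60 (adjusted p = 0.201), and Prrx1, a mesenchymal homeobox gene, by 0.44 (adjusted p = 1.00; 0.0339 with the block). The 2 at an unadjusted p under 0.05 were Myf5 and Myog (0.44, limma adjusted p = 0.393). A median difference of 0.17 was found for the list. Without Dom/Dom replicate 1 Myf5 and Myog were called, where 42 of all 6855 genes were.

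Epithelial markers, which bear on Lamb3, had 0 of 14 called by limma and 4 at an unadjusted p under 0.05 (against 6.11% of all genes), with mean levels of 9.10 to 9.52 in Dom/Dom and 9.30 to 9.64 in wild type and a median difference of -0.16. Krt5, a basal keratin gene, differed by -0.83 (adjusted p = 0.554) and Krt8, a keratin gene of simple epithelia, by -0.50 (adjusted p = 0.232; 0.0164 with the block). Lamb3 itself stood within 0.33 log2 units across the Dom/Dom arrays and 0.19 across the wild-type arrays. Of the 14 differences 13 were below 0 and 1 was above, that of Krt19 (0.29), beside a median of -0.0009 over all genes. Such a lean was not particular to this list. All 12 glial differences were below 0, and all 6 pericyte and 12 of 14 mesoderm differences were above 0. Of the endothelial differences 7 were below 0 and 4 above. Krt19 was called higher without wild-type replicate 1, where 40 of all 6855 genes were called, and not over all arrays.

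**Figure D5:**
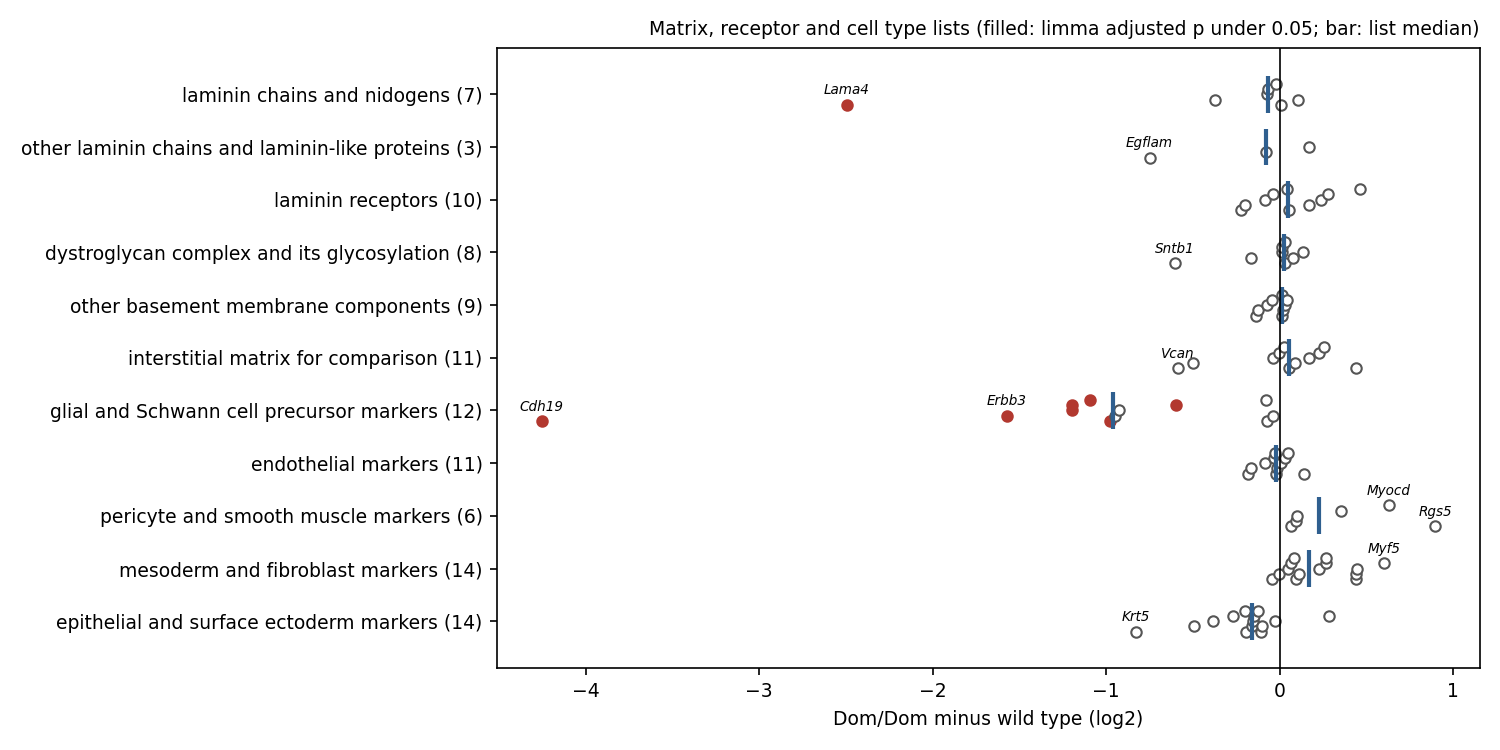
Dom/Dom minus wild type in log2 units (horizontal axis) for each measured gene of the matrix, receptor and cell type lists, with the number measured in brackets, filled points for genes called by limma at an adjusted p under 0.05 and a bar at each list's median. Filled points are Lama4 in the top row and 7 glial markers, whose median is -0.96; the medians of the other rows lie between -0.16 and 0.23.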

How the data were processed

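Expression was measured on Affymetrix Mouse Gene 1.0 ST arrays from 250 ng of total RNA. The deposited log2 values give 1 level for each probe set on each array. Per the submitters' processing notes they were made with RMA and Partek; their versions are not given in the sources used here. The table used held 16381 probe sets. Of these, 7416 had 1 gene symbol in the platform annotation, 509 had several and 8456 none; the brightest probe set per gene left 6855 genes, of which 6829 matched a RefSeq table of GRCm38.p6 by gene identifier. No low-level filter was applied. Most of the genes (6707) lie on chromosomes 1 and 10 to 16; laminin genes outside the table were not analysed here.

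Genotypes were taken from the sample titles and compared with limma 3.58.1 in R 4.3.3 (genotype as the single term, two-sided, Benjamini-Hochberg over 6855 genes, threshold 0.05). The steps were tested on simulated data. Alternatives were the replicate number as a block, leaving out each array, median centring, quantile normalization, a filter on dim genes, other probe set rules, a variance trend and array weights. The members and gene lists were chosen with earlier results of these data known. Named genes were the 7 members, Sox10, up to 4 called genes per list (otherwise the 2 with the greatest difference), the 10 neighbours of Lama4 and the 5 genes most like it by each measure; others were chosen after their values were seen.

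Same-numbered arrays deviated together (lowest r 0.47, highest 0.67, with a limit of 0.1), and replicate numbers were used as pairs on that ground, not from a label; differently numbered arrays also reached 0.38. No batch is given in the labels. The number of arrays limits the precision, and signal over background could not be assessed.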

Additional observations from a re-analysis of the deposited data

Results flagged for a closer look

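In each set of 4 arrays of a genotype, a value was marked when its gap to the nearest other array, as a share of the set's range, passed Dixon's 95% critical value. Of 116 sets, 8 were marked, and chance marks about 1 in 20. Among the laminin and nidogen genes this was Nid1, low in wild-type replicate 2 (11.91, against 12.51 to 12.57 in the other 3 wild-type arrays).

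Also low in that array was the mean of the pericyte and smooth muscle markers (9.43, with the others at 9.72 to 9.74). Itga3 was high in wild-type replicate 1 (10.40, others 9.67 to 9.69). Among the neighbours of Lama4, low values were those of Hdac2 in wild-type replicate 1 (12.21, with others 12.51 to 12.55), Marcks in Dom/Dom replicate 1 (13.08, others 13.18 to 13.20) and Traf3ip2 in Dom/Dom replicate 2 (8.12, others 8.36 to 8.40). Erbb3 (10.03, others 10.80 to 10.96) and the mean of the endothelial markers (8.10, others 8.19 to 8.20) were low in Dom/Dom replicate 1.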

How the results depend on the processing

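The difference of Lama4 ran from -2.75 (array weights) to -2.31 (without wild-type replicate 4), and from -2.66 to -2.31 when 1 array was left out; since it was chosen by this contrast, its calls under these settings are not read as support. Only 11 of the 16 alternatives could move the difference of a gene with 1 probe set; the block, the trend, the dim filter and the probe set rules could not. Nid1 was called in 1 alternative, without wild-type replicate 2. The count of all called genes was 33 and became 103 with the replicate block and 190 with array weights. It was 39 without dim genes, 42 with a trend on level, and 10 to 51 when 1 array was left out. With the replicate block 1 laminin-like gene (Egflam), 2 interstitial matrix genes, 1 pericyte, 1 mesoderm and 1 epithelial marker were called. Egflam was also the 1 laminin-like gene called without dim genes, with a trend on level and with array weights. All 4 settings called more genes in all, and its limma adjusted p was already 0.0512 in the main fit. These calls are therefore not read as support. With array weights 1 dystroglycan complex gene (Sntb1), 1 interstitial matrix gene, 1 pericyte, 1 mesoderm, 2 epithelial and 9 glial markers were called, Ednrb and Ngfr joining the 7. Leaving out 1 array gave 2 to 7 glial markers, 0 to 2 mesoderm markers, and 0 to 1 for dystroglycan complex, interstitial matrix and epithelial genes. The cause of these shifts was not tested. The block changed no other call among the lists and the 7 genes, apart from the glial markers Cmtm5 and Gas7, which were lost. Another background correction was not run, as the values were already summarised.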
